A study of Mus musculus with 2 samples.

Results

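The collagen genes were taken as every feature whose symbol is Col, a number, the letter a and a number, and that had at least 20 unique molecular identifiers (UMIs, counts of captured RNA molecules) over all barcodes of either library. Of 44 such symbols, 39 passed, all 39 in the RNAlater library and 38 in the MethFix library. The lowest that passed was Col28a1, at 12 UMIs (MethFix) and 21 UMIs (RNAlater), while Col17a1 came closest of those left out, at 2 and 7. Col6a3, Col6a4, Col6a5 and Col10a1 also stayed below the limit. The measurements are single-nucleus RNA-Seq counts from the stria vascularis, the epithelium of the cochlear lateral wall that secretes potassium into the endolymph, of CBA/J mice at postnatal day 30. In the MethFix library the nuclei were fixed with methanol once isolated, and in the RNAlater library the dissected tissue lay overnight in RNAlater before the nuclei were isolated. No other treatment or genotype differed, each library pooled several mice (5 to 6 for MethFix and 10 for RNAlater by the labels), and there was 1 library of each kind.

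Collagens are proteins of 3 chains wound around each other. Fibrillar collagens build banded fibrils, type IV collagens form the sheet of basement membranes, beaded filament and short-chain collagens build other networks, fibril-associated collagens sit on fibril surfaces, and a few collagens span the cell membrane. In the inner ear, collagens of types II, IX and XI are known from the tectorial membrane and the spiral ligament, and the type IV chains from the basement membranes of the stria and its capillaries.

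The libraries did not give independent measurements. Of their barcodes, 3323 occurred in both matrices, 70.0% of those of MethFix and 85.9% of those of RNAlater, and of the 18534 MethFix collagen UMIs on these barcodes 89.4% were also counted in RNAlater. On shared barcodes, the counts in the libraries lay closer together than separate samplings of the same nuclei would (squared difference 0.490 of the value for separate samplings, so less than sampling noise), so both libraries were treated as 1 sample, no p-value is given, and values from both are printed side by side without being a repeat of each other. All intervals are exact 95% intervals and cover counting error only. After filtering, 3372 MethFix and 2311 RNAlater nuclei remained, with medians of 3498.5 and 4702 UMIs. Clusters made without the collagen genes were named from marker genes, which placed 3066 MethFix and 2082 RNAlater nuclei in 8 classes holding 60.7% and 69.7% of all collagen UMIs of the matrices. These were marginal, intermediate, basal (rich in either Fat2 or Sorcs3), root, spindle and Reissner's membrane nuclei and a class rich in the bone gene Runx2. Between 1105 nuclei (marginal) and 18 nuclei (Runx2-rich) made up a class in MethFix, and between 673 and 9 in RNAlater. All listed markers were higher in their class than in the other classes pooled, except that 3 of 5 were for Reissner nuclei and 10 of 12 for Runx2-rich nuclei. The same markers had named the clusters, so this is no check of the names. A marker could still be higher in another single class, as Cldn11 was in Fat2-rich (1276) over Sorcs3-rich basal nuclei (1080) of MethFix. Fibrocyte nuclei (80 and 45) and a class rich in Cdh6 that matched no marker list (38 and 36) were set beside the 8 classes. A level is the UMIs of a gene per 1000000 UMIs of the class (CPM), and it is compared between classes within a gene, since UMIs are not scaled to gene length. Sums and orders over several genes are of UMIs as counted, and do not rank the genes by their expression.

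Summed over the 39 genes, collagen UMIs differed widely between classes. Among the 8 classes, marginal nuclei had the lowest sum, 454 CPM in MethFix (434.9 to 473.5) and 461 in RNAlater (440.4 to 483.0). Runx2-rich nuclei had the highest, 22931 (21589 to 24336) and 37915 (35755 to 40171). Reissner nuclei followed with 6009 and 5791, near the 5977 and 6645 of the fibrocyte nuclei, and the Sorcs3-rich basal nuclei had 4012 and 4050. The sums of Fat2-rich basal (2095 and 2031), root (1723 and 1788), intermediate (1404 and 1494) and spindle nuclei (919 and 1075) lay between these and the marginal nuclei. In each class a few genes carried much of the sum. The first 3 genes gave 89.6% and 89.2% of it in Reissner nuclei (Col8a1, Col25a1 and a type IV chain), 87.6% and 87.9% in intermediate nuclei (Col5a3, Col16a1 and Col23a1) and 48.5% and 51.0% in spindle nuclei.

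**Figure D1:**
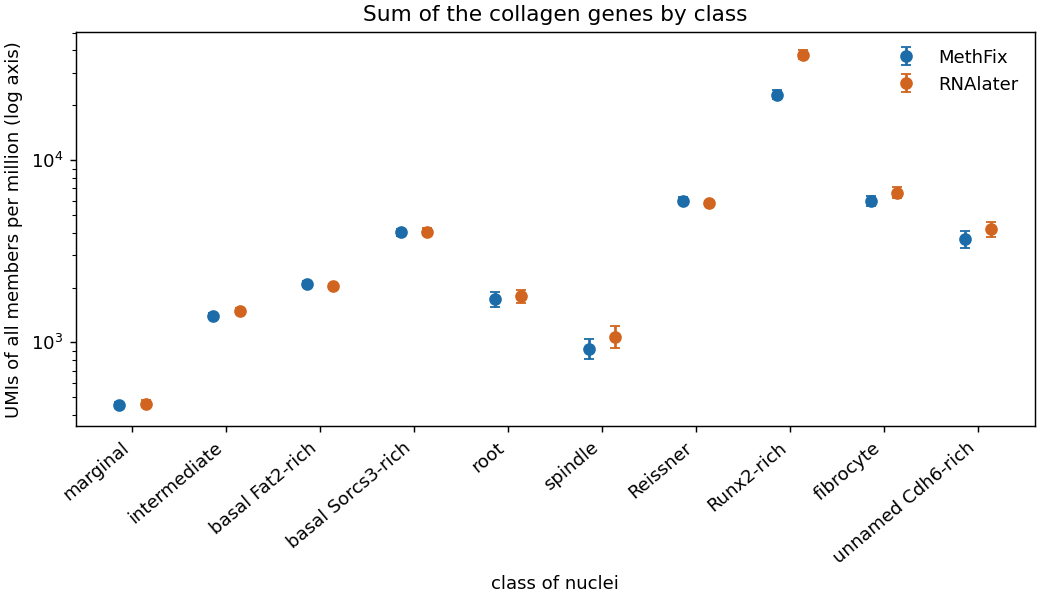
Summed level of all 39 collagen genes in CPM, drawn as UMIs per total of 1000000 (vertical log axis), in the 8 classes, fibrocyte and Cdh6-rich nuclei, with exact 95% Poisson intervals. Runx2-rich nuclei stand highest at 22931 (MethFix) and 37915 (RNAlater), and marginal nuclei lowest at 454 and 461.

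A gene was called in a class where its level was at least 4 times that of the other 7 classes pooled, in both libraries, with at least 10 UMIs in the class in each. By this rule 28 of the 39 collagen genes (71.8%) were called in at least 1 class, against 16.9% of the 15625 genes with at least 20 UMIs. The 28 genes gave 38 calls, as 8 of them were called in more than 1 class. Runx2-rich nuclei had 10 (25.6% of the 39, against 1.15% of all genes), Fat2-rich basal nuclei 7 (17.9% against 3.61%), Sorcs3-rich basal nuclei 6 (15.4% against 1.77%), Reissner nuclei 5 (12.8% against 2.3%) and root nuclei 4 (10.3% against 2.28%). The share in intermediate nuclei was 7.69% (3 genes, against 3.46%) and in spindle nuclei 2.56% (1 gene, against 1.54%). In marginal nuclei it was 5.13% (2 genes), close to the 4.21% of all genes. Against the mean level of the other 7 classes, in which every class weighs the same whatever its size, all 7 Fat2-rich calls were lost. Among the 8 classes, none of these 7 genes was highest in Fat2-rich nuclei in both libraries. Col27a1 and Col9a2, for example, were highest in Sorcs3-rich nuclei. The calls of Col11a2 in Sorcs3-rich, Col18a1 in marginal, Col4a3 in root and in spindle and Col25a1 in Runx2-rich nuclei were lost too. The 11 genes not called in any class were Col3a1, Col4a1, Col5a1, Col6a6, Col7a1, Col9a3, Col12a1, Col14a1, Col20a1, Col26a1 and Col28a1. The lowest ratios inside the limit were 4.23 in RNAlater for Col4a3 in root nuclei and 4.30 in MethFix for Col4a5 in root nuclei, and just outside it lay Col5a2 in Fat2-rich basal nuclei (3.97 and 3.07) and Col9a3 in Sorcs3-rich basal nuclei (3.36 and 3.76).

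**Figure D2:**
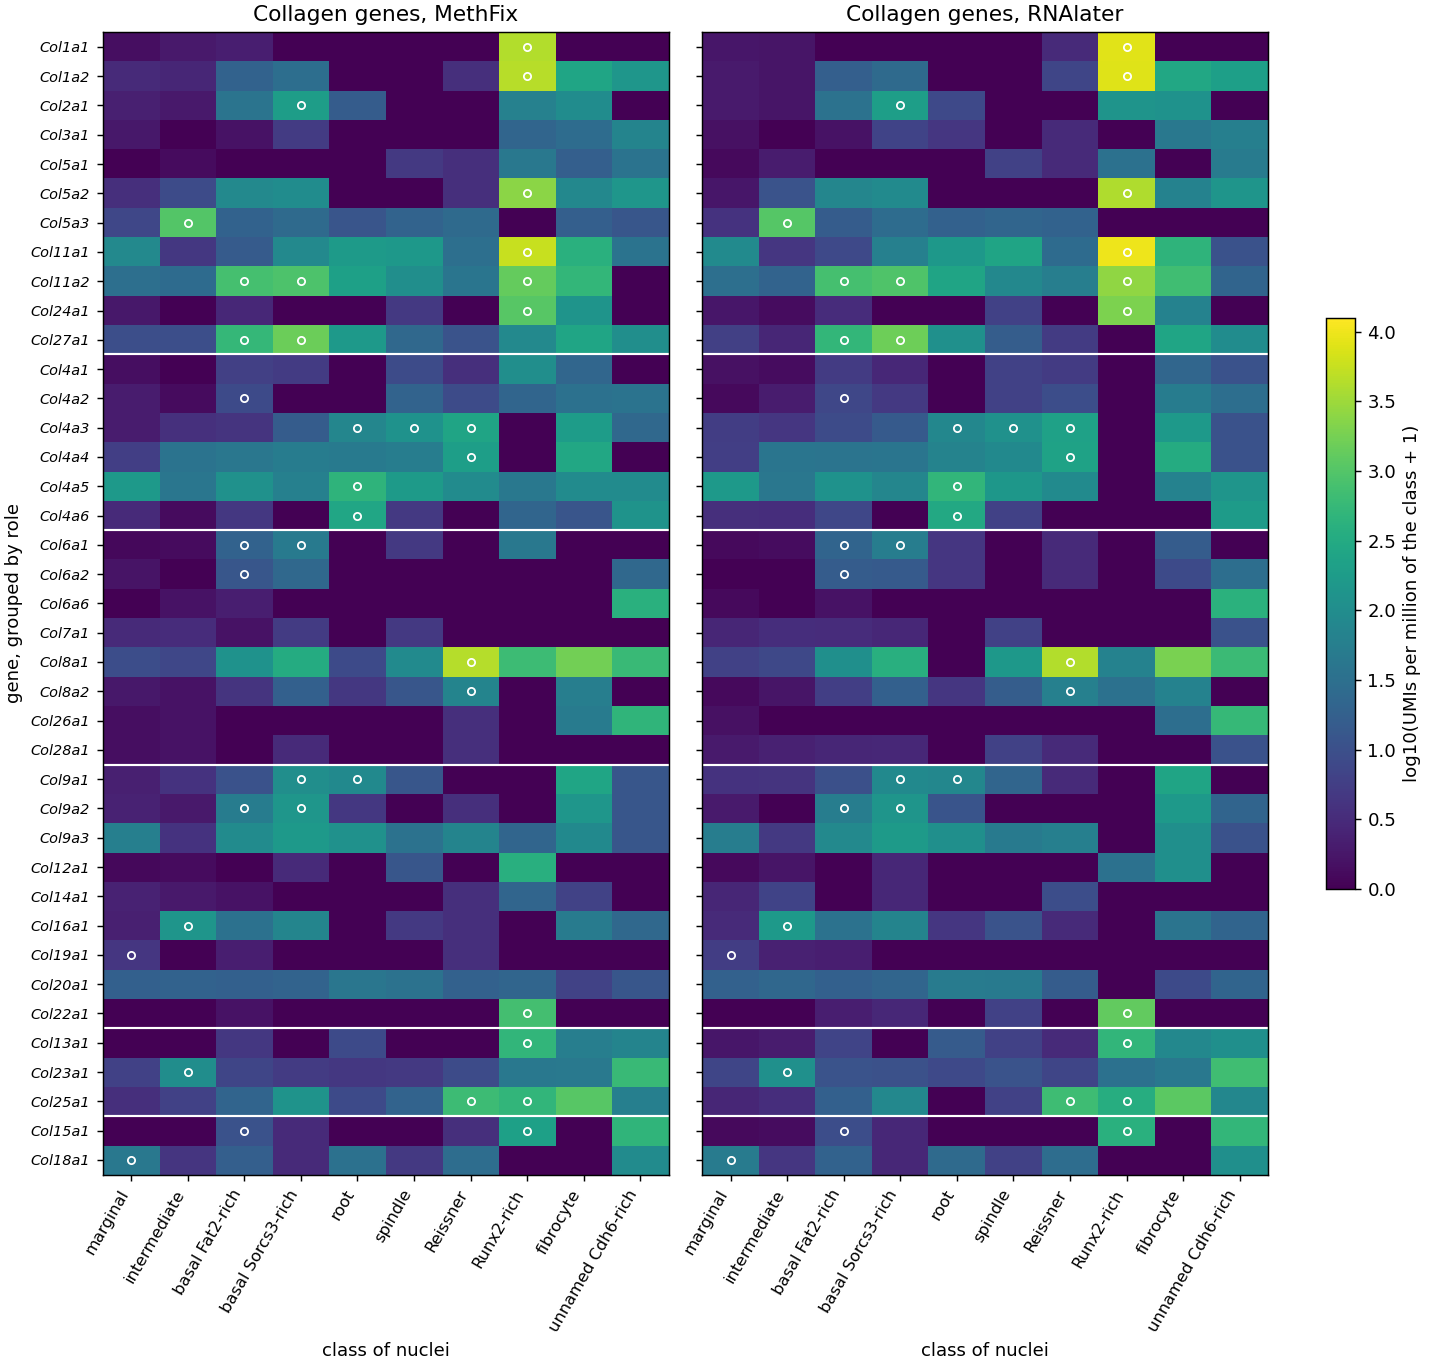
Level of the 39 collagen genes (rows, grouped by role from fibrillar at the top to multiplexin at the bottom) in 10 classes of nuclei (columns), as log10 of CPM of the class plus 1, for MethFix (left) and RNAlater (right). Circles mark the 38 calls, 10 of them in the Runx2-rich column.

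Among the fibrillar collagens, Col5a3 was the collagen of intermediate nuclei, the melanocyte-like cells of the stria. Col5a3 encodes a chain of type V collagen, which regulates fibril width, and lies at chr9:20770050-20815067 on the minus strand (GRCm38). It had 3362 UMIs in the 854 intermediate nuclei of MethFix, a level of 993 (959.6 to 1027) CPM, and 2970 in the 522 of RNAlater, a level of 1043 (1006 to 1081). In the other 7 classes its level was at most 26.7 CPM, and the ratio to those classes pooled was 86.3 (70.0 to 107.6) and 108 (85.2 to 139). The counting interval of intermediate nuclei overlapped that of no other class. At least 1 Col5a3 UMI was found in 84.4% (81.8% to 86.8%) and 94.3% (91.9% to 96.1%) of them, and in 2.35% and 1.78% of marginal nuclei, whose median depth was higher (4552 and 6087 UMIs against 4029.5 and 5445.5). With each nucleus thinned to 1000 UMIs, the shares were 52.3% and 56.3% in intermediate and 0.569% and 0.448% in marginal nuclei. The level differed among clusters of intermediate nuclei, from 811 (741 to 887) to 1032 (994 to 1070) CPM in MethFix and from 747 (699 to 797) to 1274 (1206 to 1346) in RNAlater. The other type V chains were not called in intermediate nuclei. Col5a2 had 26 and 29 UMIs there, against 136 and 125 in Fat2-rich basal nuclei, and Col5a1 had 1 and 3. With 26 and 22 UMIs over the whole matrices, Col5a1 was too rare to be placed in a class.

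The promoter of Col5a3 is shown as that of the collagen with the most UMIs in the libraries, over the 250 bases before its start, at chr9:20815068-20815317 on the minus strand (RefSeq, GRCm38.p6). Capitals mark matches, on either strand, to the motifs GGGCGG (the GC box), CCAAT, the core promoter motif TATAAA, the E-boxes CATGTG or else CACGTG, and TGTGGT (RUNX), here and in the promoters of other collagens, and no matches shown share a base. It held 2 GC boxes and 1 CCAAT, motifs found in 32.7% and 33.8% of the 32851 promoters of this length, and no match to TATAAA (12.4% of promoters), CATGTG (12.3%), CACGTG (6.02%) or TGTGGT (14.0%).
Col5a3: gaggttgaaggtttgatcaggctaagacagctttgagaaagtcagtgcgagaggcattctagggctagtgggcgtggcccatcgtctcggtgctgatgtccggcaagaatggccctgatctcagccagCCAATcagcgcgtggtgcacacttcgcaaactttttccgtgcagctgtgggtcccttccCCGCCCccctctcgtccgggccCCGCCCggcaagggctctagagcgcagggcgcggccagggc

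**Figure D3:**
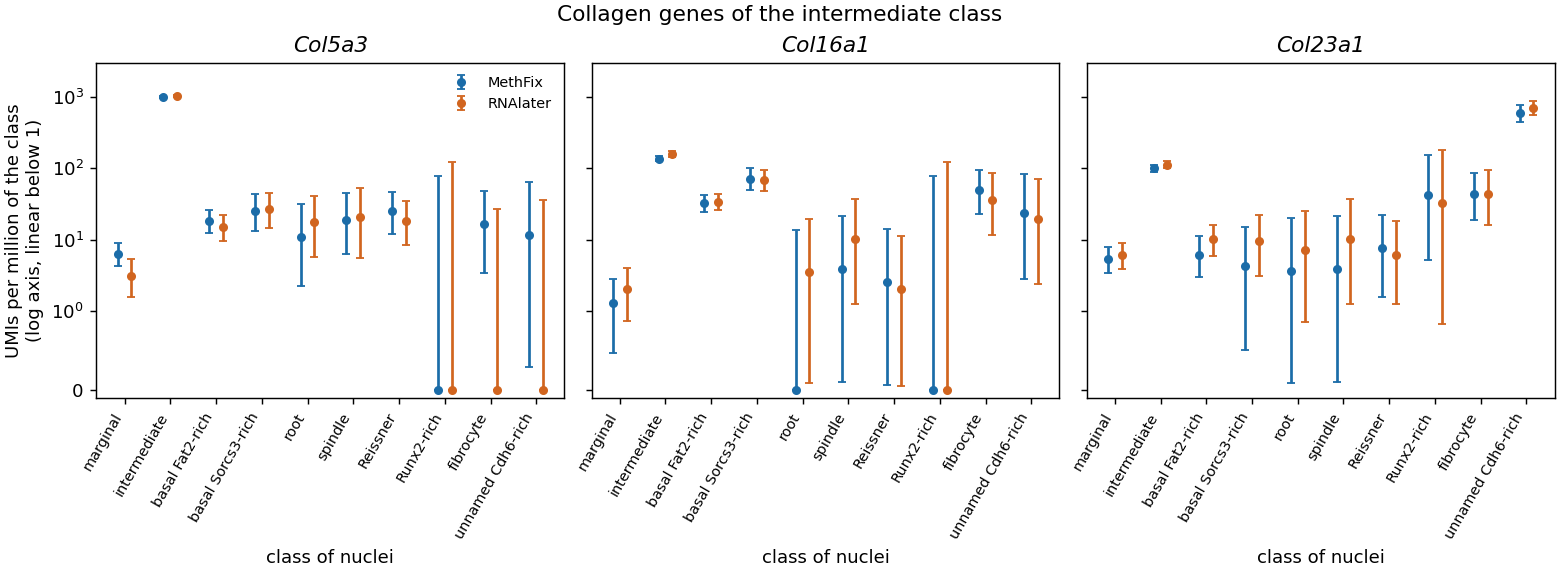
Level of Col5a3, Col16a1 and Col23a1 in CPM (vertical log axis, linear below 1) in 10 classes of nuclei, points with exact 95% Poisson intervals. Col5a3 reaches 993 and 1043 in intermediate nuclei and at most 26.7 in the other 7 classes, while Col23a1 is higher in Cdh6-rich (592 and 706) than in intermediate nuclei (99.5 and 113).

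Col11a1 and Col11a2, chains of type XI collagen, the regulator of thin fibrils in cartilage and the tectorial membrane, were both highest among the 8 classes in Runx2-rich nuclei and otherwise differed in their classes. Col11a2 was called in both basal classes and in Runx2-rich nuclei, where its level was 1349 (1039 to 1723) and 2638 (2091 to 3283) CPM. Its level was 787 (744 to 831) and 772 (730.4 to 815) CPM in Fat2-rich basal nuclei, 895 (813 to 985) and 919 (839 to 1005) in Sorcs3-rich basal nuclei, 516 and 689 in fibrocyte nuclei and 30.2 and 30.1 in marginal nuclei. In Fat2-rich basal nuclei at least 1 Col11a2 UMI was found in 84.7% (81.4% to 87.7%) and 91.6% (88.5% to 94.1%), and in intermediate nuclei in 8.08% and 8.24%, at median depths of 2859 and 3951.5 UMIs against 4029.5 and 5445.5. Col11a1 was called in Runx2-rich nuclei, with 5691 (5032 to 6412) and 10056 (8959 to 11250.0) CPM. It also reached 401 and 472 in fibrocyte, 168 and 155 in root, 153 and 246 in spindle and 84.5 and 90.7 in marginal nuclei, but only 14.1 and 7.13 in Fat2-rich basal nuclei. The ratio of Col11a1 to Col11a2 UMIs therefore spanned a wide range across classes. It was 0.0179 (0.0113 to 0.0270) and 0.00924 (0.00476 to 0.0162) in Fat2-rich basal nuclei, 0.0937 and 0.0643 in Sorcs3-rich basal nuclei, 2.80 (2.31 to 3.41) and 3.01 (2.44 to 3.73) in marginal nuclei and 4.22 and 3.81 in Runx2-rich nuclei. The order of the classes by this ratio, and not its size, can be read, because the chains differ in length.

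Col27a1 and Col2a1 were highest among the 8 classes in the Sorcs3-rich basal nuclei. Col27a1 encodes a cartilage fibrillar collagen, and its level was 1495 (1388 to 1609) and 1545 (1441 to 1655) CPM there, 535 (500.3 to 572) and 510.4 (477 to 546) in Fat2-rich basal nuclei and 258 and 254 in fibrocyte nuclei. Both basal classes were called for it, while intermediate nuclei had 8.56 and 1.76 CPM. At least 1 Col27a1 UMI was found in 85.0% and 92.9% of Sorcs3-rich nuclei, in 60.1% and 69.0% of Fat2-rich nuclei and in 2.34% and 0.958% of intermediate nuclei. Col2a1, the main fibrillar collagen of cartilage, reached 193 (156 to 237) and 196 (160.4 to 238) CPM in Sorcs3-rich and 37.4 and 34.5 in Fat2-rich basal nuclei, and was called in the former at ratios of 26.9 and 26.6. The other 6 classes had at most 6 UMIs of Col2a1 in either library, among them Runx2-rich nuclei with 3 and 4, which in so small a class came to 63.2 and 132 CPM. The counting intervals of Runx2-rich and Sorcs3-rich nuclei overlapped for this gene. Outside the 8 classes, the fibrocyte clusters had 68.6 to 146 CPM of Col2a1 in MethFix and 40.7 to 159 in RNAlater, on at most 8 UMIs each.

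The chains of type I collagen, the main fibril of bone and skin, came from few nuclei. Col1a1 had 201 UMIs in the 18 Runx2-rich nuclei of MethFix and 253 in the 9 of RNAlater, 4236 (3671 to 4864) and 8341 (7345 to 9435) CPM, and 7 and 6 UMIs in the other 7 classes together. Col1a2 had 217 and 243 UMIs there, 4574 (3985 to 5224) and 8012 (7036 to 9085) CPM. Both were called in this class, with the ratio to the other classes at 6753 (3218 to 17013) and 13859 (6279 to 38122) for Col1a1. Col5a2, which assembles with Col5a1 in type V collagen, was at 2445 (2020.3 to 2932) and 4022 (3340.3 to 4803) CPM, and Col24a1, a fibrillar collagen of developing bone, at 1075 (800.3 to 1413) and 1978 (1509.6 to 2546). In fibrocyte, Cdh6-rich and Fat2-rich basal nuclei the ratio of Col1a1 to Col1a2 UMIs was lower than in Runx2-rich nuclei (0.926 and 1.04). Fibrocyte nuclei had 47 and 40 Col1a2 UMIs (258 and 290.2 CPM) and none of Col1a1, which allows a level of up to 16.5 and 21.8 CPM, and Cdh6-rich nuclei had 12 and 21 against none. Fat2-rich basal nuclei had 30 and 28 UMIs of Col1a2 and 2 and 0 of Col1a1. Col5a1 had 2 UMIs beside 116 of Col5a2 in the Runx2-rich nuclei of MethFix and 1 beside 122 in those of RNAlater, out of 26 and 22 over the whole matrices. Col3a1, which accompanies type I collagen in soft tissue, had at most 4 UMIs in any of the 8 classes of either library and 6 and 6 in Cdh6-rich nuclei.

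The Runx2-rich nuclei were few and uneven. The nucleus with the most Col1a1 held 89 of the 201 UMIs in MethFix (44.3%) and 110 of the 253 in RNAlater (43.5%), and the median nucleus held 1 and 5. Without that nucleus the level of Col1a1 was 2556 and 5532 CPM. Col1a1 UMIs were found in 11 of 18 and 7 of 9 of these nuclei. In MethFix, the 10 nuclei whose barcode was also in the RNAlater matrix had 5887 Col1a1, 8045 Col11a1 and 3575 Ibsp CPM, Ibsp being a matrix protein of bone, while the 8 others had 667, 599.9 and 133. Runx2 itself was alike in both sets, with 4685 and 4733 CPM. Sp7, a factor of bone-forming cells, had 8 and 5 UMIs in the class, and Bglap (osteocalcin) 39 and 73. The class thus held nuclei with and without high collagen levels, and all its values rest on 47446 and 30331 UMIs.

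The type IV collagens showed 3 patterns by gene pair, and the pairs are neighbours in the genome. Col4a3 (chr1, plus strand, start 82586921) and Col4a4 (minus strand, start 82586849) are head to head with starts 72 bases apart, Col4a5 and Col4a6 on chromosome X with starts 1309 bases apart, and Col4a1 and Col4a2 on chromosome 8 overlap at their starts on opposite strands. Upstream windows of Col4a4, Col4a5 and Col4a6 are shown because these pairs start from a common region and yet their members were not counted alike in every class. The Col4a4 window, which is the whole gap to Col4a3, is chr1:82586850-82586920, the Col4a5 window chrX:141475169-141475384 and the Col4a6 window chrX:141474077-141474326, each written in the direction of the gene it is named for (Col4a5 plus, Col4a4 and Col4a6 minus strand, RefSeq, GRCm38.p6). The Col4a4 window held none of the motifs (which 2.38% to 20.7% of promoters hold over its 71 bases), the Col4a5 window 1 CCAAT (in 30.5% of promoters over 216 bases) and the Col4a6 window 1 GC box (32.7% over 250 bases).
Col4a4: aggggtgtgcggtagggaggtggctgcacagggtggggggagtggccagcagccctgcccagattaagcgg
Col4a5: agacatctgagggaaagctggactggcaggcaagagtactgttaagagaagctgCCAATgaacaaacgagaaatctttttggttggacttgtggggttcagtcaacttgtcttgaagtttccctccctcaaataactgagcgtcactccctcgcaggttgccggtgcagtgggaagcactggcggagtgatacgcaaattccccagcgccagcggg
Col4a6: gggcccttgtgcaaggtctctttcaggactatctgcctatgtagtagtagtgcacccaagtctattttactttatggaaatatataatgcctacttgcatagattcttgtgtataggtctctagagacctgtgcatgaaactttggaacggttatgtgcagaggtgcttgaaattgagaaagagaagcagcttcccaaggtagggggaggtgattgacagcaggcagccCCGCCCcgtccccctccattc

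Col4a6, a chain of epithelial basement membranes, was highest among the 8 classes in root nuclei, the cells whose processes reach into the spiral ligament. Its level there was 262 (205 to 330.3) CPM in MethFix (72 UMIs) and 299.7 (239 to 371) in RNAlater (85 UMIs), and 2.11 and 2.53 in marginal nuclei. The ratio to the other classes pooled was 151 (90.0 to 265) and 100.4 (65.2 to 159). Outside the 8 classes, Cdh6-rich nuclei had 128 and 177 CPM. Pericyte nuclei had 2 and 3 UMIs out of totals of only 12598 and 8438, in RNAlater a higher level than in root nuclei. Sorcs3-rich basal and Reissner nuclei had no Col4a6 UMI in either library. Col4a5, its usual partner, was also highest among the 8 classes in root nuclei, at 466 (389 to 554) and 497 (418.5 to 586), but was counted in all 8 classes of MethFix and, save Runx2-rich nuclei, in those of RNAlater. It was at 172 and 148 CPM in spindle, 159 and 164 in marginal, 116 and 124 in Fat2-rich basal and 39.3 and 40.7 in intermediate nuclei. With 2177 and 1781 UMIs over the matrices it was the type IV chain with the most UMIs, and the gene with the most collagen UMIs in marginal nuclei. The few pericyte nuclei (7 and 4) were higher still, at 794 and 829.6 CPM from 10 and 7 UMIs. The ratio of Col4a5 to Col4a6 UMIs was 1.78 (1.32 to 2.41) and 1.66 (1.26 to 2.20) in root nuclei, 0.727 and 0.778 in Cdh6-rich nuclei and 75.1 (40.6 to 157) and 64.6 (34.9 to 135) in marginal nuclei. In root nuclei 15 and 23 nuclei held UMIs of both chains and 2 and 0 held Col4a6 alone.

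Col4a6 was uneven within the root class. In MethFix, a cluster of 34 root nuclei with 4462 CPM of Slc26a4 (pendrin) and 1275 of Lgr5, both root markers here, had 603 (471 to 761) of Col4a6 and 748 (599.9 to 921) of Col4a5. A cluster of 38 root nuclei with 650 of Slc26a4 and 87.3 of Lgr5 had no Col4a6 UMI (exact interval up to 35.8) and 213 (134 to 323) of Col4a5, and a cluster of 14 without Slc26a4 had 1 Col4a6 UMI. The cluster of 38 was in turn the higher for Col9a1 (165 against 59.5), Col11a1 (291 against 136) and Col27a1 (272 against 85.0), and the lower for Col11a2 (155 against 314). In RNAlater, 56 root nuclei with 2999 of Slc26a4 had 365 (291 to 452) of Col4a6, and 13 without Slc26a4 had 2 UMIs. A further RNAlater cluster of 13 nuclei scored highest for the root markers but lacked Lgr5 and was left unnamed. Its top genes included Ceacam16, Aox2, Srgap1, Wscd2 and Tdrd12, as did those of the MethFix cluster of 38. The root class was thus not drawn alike in the libraries, and its values are not of fully matching nuclei. In the paper, Lgr5 RNA was also seen in Deiters and outer sulcus cells, and Epyc RNA in the outer sulcus and greater epithelial ridge. Whether part of the root class comes from such cells was not tested. Without the clusters that lack Slc26a4, the level of Col4a6 in root nuclei was 322 and 365. Clusters were drawn in these same nuclei, so these values are a description.

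Col4a3 and Col4a4, chains of the mature basement membrane of the kidney filter and the inner ear, were highest among the 8 classes in nuclei of Reissner's membrane, the thin sheet between endolymph and perilymph. Col4a3 was at 247 (201 to 302) and 219 (179 to 265) CPM there, Col4a4 at 197 (156 to 246) and 225 (185 to 271). Fibrocyte nuclei were close for Col4a3 (181 and 167) and higher for Col4a4 (286 and 334), with overlapping counting intervals in each library. The few pericyte nuclei had 8 and 0 UMIs of Col4a3, in MethFix a higher level than in Reissner nuclei. Of the fibrocyte UMIs of Col4a4, 34 of 52 lay in a cluster of 16 nuclei in MethFix, at 1167 (808 to 1630) CPM, and 34 of 46 in a cluster of 10 in RNAlater, at 1384 (958 to 1934), while the other fibrocyte clusters were at 60.3 to 235 CPM. Col4a3 was called in 2 further classes, spindle (122 and 118) and root (76.5 and 77.6), while Col4a4 was spread over basal and intermediate nuclei as well. Intermediate nuclei had 119 and 110 Col4a4 UMIs (35.1 and 38.6 CPM) beside 9 and 10 of Col4a3. Their Col4a3 to Col4a4 ratio was 0.0756 (0.0338 to 0.148) and 0.0909 (0.0424 to 0.174). Fat2-rich basal nuclei had a ratio of 0.0746 (0.0235 to 0.183) and 0.206 (0.104 to 0.379), and Sorcs3-rich basal nuclei 0.28 and 0.35. In Reissner nuclei the ratio was 1.26 (0.924 to 1.71) and 0.973 (0.738 to 1.28), and 26 and 29 nuclei held both chains. In spindle nuclei it was 2.29 (1.19 to 4.64) and 1.35 (0.692 to 2.70). The root calls of Col4a3 and Col4a5 did not hold with the TMM factors of edgeR, that of Col4a5 not with no upper limit on UMIs, and that of Col4a3 not with fibrocyte and Cdh6-rich nuclei among the other classes.

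Col4a1 and Col4a2, the chains of nearly all basement membranes, were low in the 8 classes, with 1 exception in 1 library. Runx2-rich nuclei had 105 CPM of Col4a1 in MethFix, from 5 UMIs in 2 nuclei, and none in RNAlater. Col4a2 was called in Fat2-rich basal nuclei on 12 and 11 UMIs (7.36 and 6.54 CPM). This call was lost with a mitochondrial limit of 5% or with no upper limit on UMIs. Col4a1 had 8 and 7 UMIs there and missed the minimum. Both were far higher in the 10 and 6 endothelial nuclei, with 750.1 (374.5 to 1342) and 983 (524 to 1682) CPM of Col4a1 and 341 and 303 of Col4a2, from 11 and 13 and from 5 and 4 UMIs. Pericyte nuclei had 7 and 1 UMIs of Col4a1 (556 and 119 CPM) and 5 and 1 of Col4a2 (397 and 119 CPM), with intervals that overlapped those of endothelial nuclei. No UMI of Col4a3, Col4a4, Col4a5 or Col4a6 was counted in endothelial nuclei, whose few UMIs allow a level of up to 205 and 227 CPM of each.

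**Figure D4:**
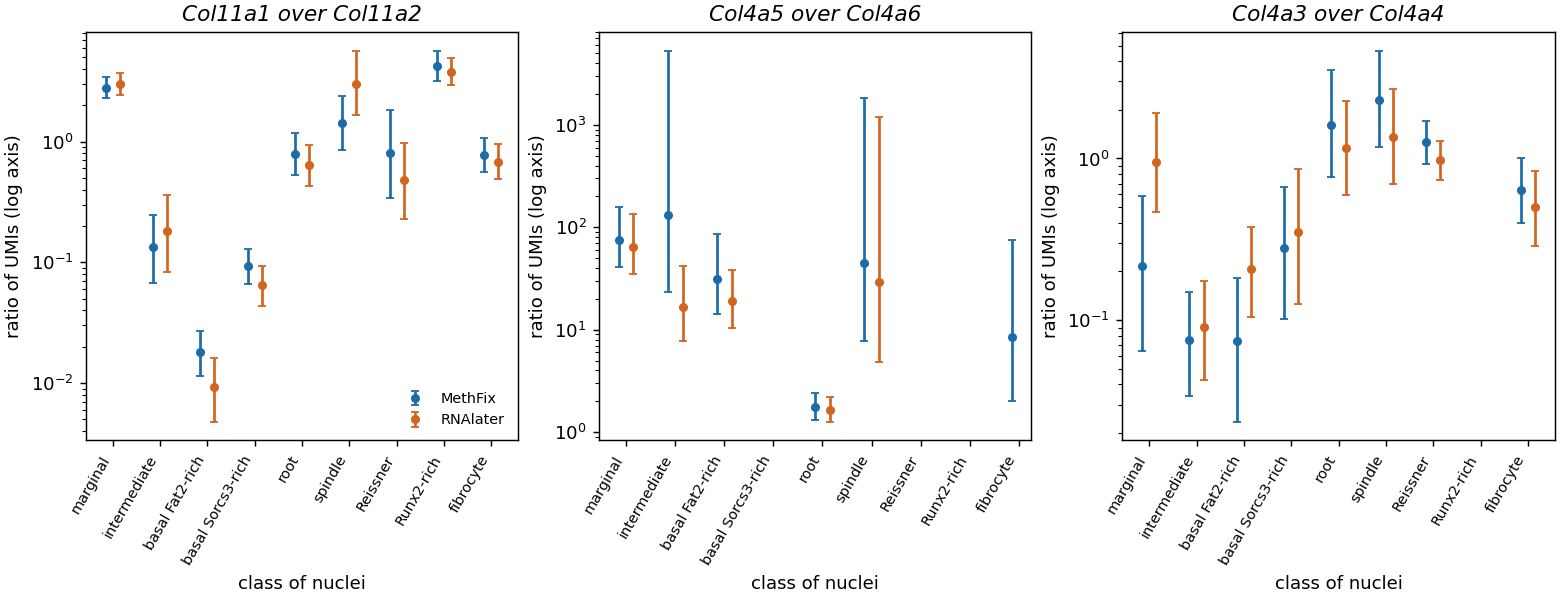
Ratio of the UMIs of 2 chains (vertical log axis) in the 8 classes and fibrocyte nuclei, with exact 95% intervals: Col11a1 over Col11a2, Col4a5 over Col4a6 and Col4a3 over Col4a4. Classes are left out where either chain had no UMI or the 2 chains together had few. Of the classes drawn, root nuclei are lowest for Col4a5 over Col4a6 (1.78 and 1.66) and Fat2-rich basal nuclei for Col11a1 over Col11a2 (0.0179 and 0.00924).

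Of the network-forming collagens, Col8a1 gave Reissner nuclei most of their collagen UMIs. Type VIII collagen is a short-chain collagen known from the membrane beneath the corneal endothelium, and Col8a1 lies at chr16:57624258-57754737 on the minus strand. It had 1775 and 2089 UMIs in the 155 and 154 Reissner nuclei, 4481 (4275 to 4695) and 4275 (4093 to 4462) CPM, and was called at ratios of 102 (91.7 to 113) and 89.9 (81.2 to 99.8). Fibrocyte nuclei came next with 1698 and 1915, ahead of Cdh6-rich (592 and 628), Sorcs3-rich basal (331 and 379.6) and Fat2-rich basal nuclei (123 and 108). The fibrocyte clusters were unequal for Col8a1, from 507 (365 to 685) CPM in 30 nuclei to 5057 (4251 to 5971) in 14 nuclei of MethFix, and from 380.3 (244 to 566) in 17 to 4185 (3638 to 4791) in 18 of RNAlater. At least 1 Col8a1 UMI was found in 82.6% (75.7% to 88.2%) and 83.8% (77.0% to 89.2%) of Reissner nuclei and in 1.90% and 2.23% of marginal nuclei, which were deeper. Thinned to 1000 UMIs the shares in Reissner nuclei were 75.0% and 75.7%. In Runx2-rich nuclei the libraries differed, with 31 UMIs in MethFix (653 CPM, 444 to 927) and 2 in RNAlater (65.9, 7.99 to 238). Col8a2, the other type VIII chain, was called in Reissner nuclei on 28 and 29 UMIs (70.7 and 59.3 CPM), and 17 and 18 of the nuclei with Col8a1 also held it.

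The 250 bases before the start of Col8a1, at chr16:57754738-57754987 on the minus strand (RefSeq, GRCm38.p6), are shown as those of the collagen that dominated Reissner nuclei, and held 4 GC boxes and 1 match to TGTGGT, a motif in 14.0% of promoters of this length.
Col8a1: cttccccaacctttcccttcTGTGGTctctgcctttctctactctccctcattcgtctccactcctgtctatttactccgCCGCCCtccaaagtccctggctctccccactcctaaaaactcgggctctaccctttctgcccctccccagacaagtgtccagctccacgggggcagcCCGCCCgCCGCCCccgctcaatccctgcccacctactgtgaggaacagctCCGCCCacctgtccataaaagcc

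The beaded filament chains Col6a1 and Col6a2 were basal genes at low levels. Col6a1 was called in both basal classes, at 18.4 and 19.6 CPM in Fat2-rich and 46.1 (28.9 to 69.9) and 53.4 (35.5 to 77.2) in Sorcs3-rich nuclei. Col6a2 was called in Fat2-rich nuclei (11.6 and 14.9) and had 11 and 7 UMIs in Sorcs3-rich nuclei. Col6a3, the usual partner of both, had 4 and 1 UMIs over the whole matrices. The Fat2-rich calls of Col6a1 and Col6a2 were lost with a mitochondrial limit of 5%. Another network gene, Col6a6, was seen outside the 8 classes, at 395 (273 to 552) and 422 (305 to 568) CPM in Cdh6-rich nuclei, as was Col26a1, at 488 (351 to 659) and 549 (415 to 713). Col7a1, the anchoring fibril collagen, had at most 10 UMIs in any class, and Col28a1 at most 4.

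The fibril-associated collagens were called in basal, root, intermediate, marginal and Runx2-rich nuclei. Type IX collagen coats the fibrils of cartilage, and its 3 chains were all highest among the 8 classes in Sorcs3-rich basal nuclei, although the intervals of that class and of root nuclei overlapped for Col9a1 and Col9a3. There Col9a1 was at 105 (77.8 to 138) and 85.8 (62.6 to 115) CPM, Col9a2 at 143 (111 to 181) and 135 (106 to 171), and Col9a3 at 159 (126 to 199.5) and 169.8 (136 to 209). Outside that class the chains parted. Root nuclei had 24 and 22 UMIs of Col9a1 (87.4 and 77.6 CPM, called) and 32 and 31 of Col9a3 but 1 and 3 of Col9a2, and marginal nuclei had 274 and 208 UMIs of Col9a3 (57.9 and 52.7 CPM) beside 6 and 12 of Col9a1 and 7 and 4 of Col9a2. The ratio of Col9a1 to Col9a2 UMIs was 0.190 (0.104 to 0.328) and 0.165 (0.0886 to 0.286) in Fat2-rich basal nuclei, 0.735 (0.4999 to 1.08) and 0.634 (0.426 to 0.934) in Sorcs3-rich basal nuclei and 1.81 and 1.55 in fibrocyte nuclei. Fibrocyte nuclei had the highest Col9a1 level of all, 258 (189.7 to 343) and 247 (171 to 345). Col9a3, with levels of 52.7 CPM and more in marginal, Reissner, root and both basal classes, was called in none.

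Col16a1, a collagen of fibril and cell surfaces, was called in intermediate nuclei at 137 (125 to 150.4) and 157 (143 to 172) CPM. It was at 71.3 and 68.7 in Sorcs3-rich basal, 32.5 and 33.9 in Fat2-rich basal and 1.27 and 2.03 in marginal nuclei. Col19a1, a collagen of basement membrane zones and muscle, was called in marginal nuclei on 16 and 18 UMIs (3.38 and 4.56 CPM), a call lost with no upper limit on the UMIs of a nucleus. Col22a1, found at tissue junctions, had 36 and 39 UMIs in Runx2-rich nuclei (759 CPM, 531 to 1050.4, and 1286 CPM, 914 to 1758) and 1 and 4 in the other 7 classes together, a ratio of 8467 (1426 to 343602) and 3205 (1156 to 12346). Col12a1, a collagen on the surface of type I fibrils, had 18 UMIs in Runx2-rich nuclei of MethFix and 1 in those of RNAlater, and 0 and 15 in fibrocyte nuclei. Of these, 15 of the 18 and 14 of the 15 lay in 1 nucleus of the library. Col14a1 was highest in the 9 and 4 Schwann nuclei, at 698 (372 to 1194) and 1065 (582 to 1787) CPM. Col20a1 lay between 14.3 and 49.4 CPM in the 7 classes other than the Runx2-rich one, which had 1 and 0 UMIs, and was highest in root nuclei, at ratios of 2.21 and 2.54 to the other classes on 11 and 14 UMIs.

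The transmembrane collagens were called in Reissner, intermediate and Runx2-rich nuclei. Col25a1, a collagen known from neurons and muscle innervation, was called in Reissner nuclei (656, 579 to 741, and 665, 595 to 741) and Runx2-rich nuclei (506 and 363), reached 126 and 82.0 in Sorcs3-rich basal nuclei and was highest in fibrocyte nuclei (1093, 947 to 1256, and 1182, 1008 to 1378). As whole classes, Reissner and fibrocyte nuclei were thus alike in leading with Col8a1 and Col25a1. The fibrocyte clusters differed in this. A cluster of 30 in MethFix led with Col25a1 (139 UMIs) and Col11a2 (63), ahead of Col8a1 (42). A cluster of 17 in RNAlater had the same order (106, 56 and 24). Col23a1 was called in intermediate nuclei, at 99.5 (89.2 to 111) and 113 (101 to 126) CPM against at most 42.2 in the other 7 classes. It was still higher in Cdh6-rich nuclei, at 592 (441 to 778.5) and 706 (553 to 889.6), and had 10 and 3 UMIs in Schwann nuclei. Col13a1, which gathers at cell adhesions, was called in Runx2-rich nuclei on 24 and 15 UMIs (506 and 495 CPM).

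The multiplexins are basement membrane collagens that carry sugar chains. Col18a1, the source of endostatin, was called in marginal nuclei, at 43.1 (37.4 to 49.5) and 49.7 (43.0 to 57.1) CPM, with root (32.8 and 24.7) and Reissner nuclei (27.8 and 28.7) next among the 8 classes. Cdh6-rich nuclei were at 92.9 (40.1 to 183) and 108 (53.9 to 193) CPM, from 8 and 11 UMIs. The counting intervals of marginal and root nuclei overlapped. Intermediate nuclei had 3.25 and 3.51, and Sorcs3-rich basal nuclei 1 UMI in each library. Col15a1 was called in Runx2-rich nuclei on 10 and 12 UMIs and in Fat2-rich basal nuclei on 16 and 14 (9.81 and 8.32 CPM), and was far higher in Cdh6-rich nuclei, at 488 (351 to 659) and 510.2 (381 to 669). With fibrocyte and Cdh6-rich nuclei among the other classes, the Fat2-rich call of Col15a1 was lost.

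The basal classes differed in their collagens. Among the 16 collagen genes with at least 10 UMIs in the Sorcs3-rich nuclei of each library, 9 (56.2%) were at least 2 times as high there as in Fat2-rich nuclei in both libraries, against 3.72% of 6152 genes. Genes entered both shares by their UMIs in Sorcs3-rich nuclei alone, so those found mainly in Fat2-rich nuclei were left out. The share in the other direction was not counted. The largest ratio of the 9 in both libraries was that of Col9a1, 10.7 (5.99 to 20.1) and 9.63 (5.27 to 18.6). Col11a1 (5.95 and 8.29), Col2a1 (5.16 and 5.70) and Col25a1 (6.41 and 4.76) came next, in an order that differed between the libraries, and 23 of the 60 Col25a1 UMIs of Sorcs3-rich nuclei in MethFix lay in 1 nucleus. Col27a1 (2.79, 2.53 to 3.09, and 3.03, 2.75 to 3.34), Col9a2 (2.769 and 2.505), Col8a1 (2.69 and 3.53), Col6a1 (2.51 and 2.72) and Col16a1 (2.19 and 2.03) made up the 9. Of these 9, Col2a1, Col9a1, Col9a2, Col11a1 and Col27a1 encode collagens known from cartilage fibrils. Col11a2, the chain with the most UMIs in Fat2-rich nuclei, was nearly equal (1.14, 1.02 to 1.27, and 1.19, 1.07 to 1.32). In the other direction, Col4a5 was lower in Sorcs3-rich nuclei (0.525, 0.342 to 0.779, and 0.614, 0.427 to 0.865). Col18a1 had 1 UMI there in each library against 27 and 31, and Col15a1 1 against 16 and 14. Sorcs3-rich nuclei were shallower, with medians of 2129.5 and 2675 UMIs against 2859 and 3951.5, and CPM are scaled to the class total. Fibrocyte nuclei, with 258 and 247 CPM of Col9a1 and 1093 and 1182 CPM of Col25a1, stood above both basal classes for these genes. The same held for Col8a1 and Col11a1. For Col9a2 fibrocyte nuclei, with 26 and 22 UMIs, were close to Sorcs3-rich nuclei, and for Col2a1, Col6a1 and Col27a1 they were lower.

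**Figure D5:**
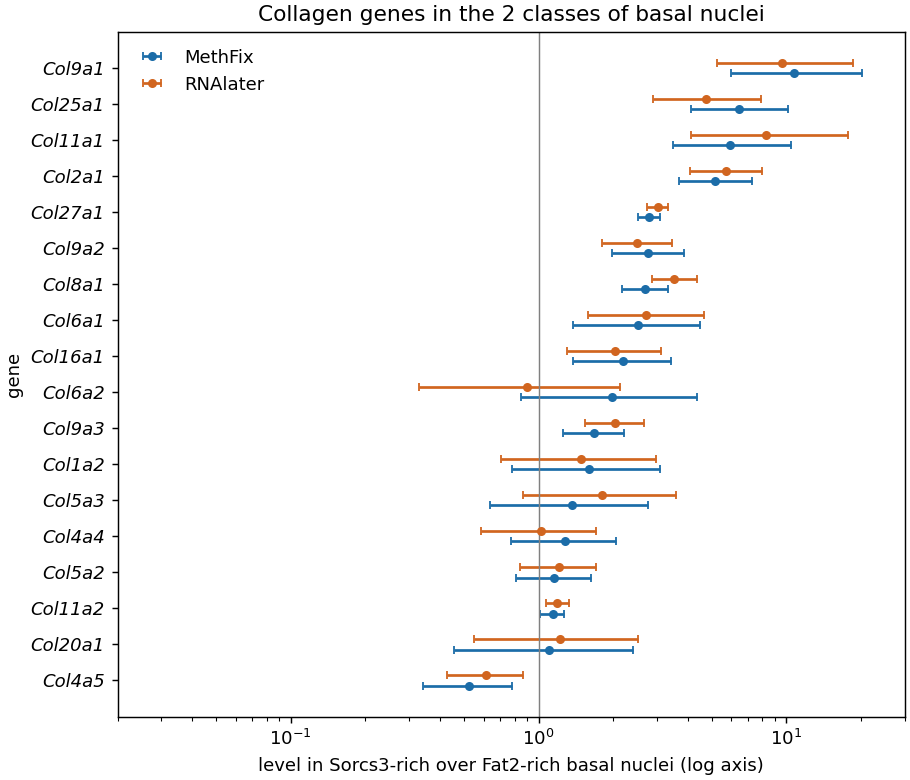
Level in Sorcs3-rich over Fat2-rich basal nuclei (horizontal log axis) for collagen genes in MethFix and RNAlater, with exact 95% intervals from the counts and a line at 1. Only genes with at least 30 UMIs over both basal classes in each library are drawn, which leaves out Col18a1. Col9a1 stands highest (10.7 and 9.63), Col11a2 near 1 (1.14 and 1.19) and Col4a5 below it (0.525 and 0.614).

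The leading collagens were also read in the MethFix nuclei whose barcodes did not occur in RNAlater, which share no barcode with that library. Col5a3 had 638 UMIs in 298 such intermediate nuclei, 829.6 (766 to 897) CPM, and 12.8 CPM in 336 such marginal nuclei. Col11a2 was at 1374 (1205 to 1560) CPM in 105 such Fat2-rich and 1411 (971 to 1982) in 26 such Sorcs3-rich basal nuclei, against 60.5 in the marginal nuclei. Col27a1 was at 710.2 (590.3 to 847) and 1497 (1043 to 2082) CPM in the same basal sets, and Col8a1 at 1895 (1287 to 2690) in 11 Reissner nuclei, where Col25a1 had 4 UMIs. Among the classes just listed, the order was thus the one seen in all nuclei for each of Col5a3, Col27a1 and Col11a2, although the Col11a2 intervals of the basal sets overlapped. Runx2-rich nuclei, above both basal classes for Col11a2 in all MethFix nuclei (1349 CPM), are not in that list. In this set they had 2 Col11a2 UMIs, as many as Ibsp had there at 133 CPM, and the call was lost. With that class included, the Col11a2 order was therefore not kept. The root set of 4 nuclei had no Col4a6 UMI, which allows a level of up to 403 CPM. The high level of Col4a6 in root nuclei thus rests on nuclei with shared barcodes. Of the 38 calls, 34 had a UMI in the class in this set, and the rest, Col4a6 in root among them, did not hold. Of these 34, 18 were lost, including those of Col4a3, Col4a4 and Col25a1 in Reissner nuclei and of Col4a5 in root nuclei. These genes had 3, 2, 4 and 1 UMIs there, so their calls too rest on nuclei with shared barcodes. So do the Sorcs3-rich calls of Col2a1, Col9a1, Col9a2 and Col6a1, lost on 3, 3, 3 and 1 UMIs, and the Runx2-rich calls of Col11a1 and Col22a1, lost on 9 and 6. All were below the minimum of 10 UMIs.

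Genes whose products modify, process, bind or accompany collagens were described beside them. Of 67 such genes with at least 20 UMIs, 27 (40.3%) were called in a class, beside 71.8% of the collagens and 16.9% of all genes. By list these were 5 of 21 modifying enzymes and chaperones, 5 of 12 processing and crosslinking enzymes, 2 of 5 collagenases, 5 of 9 receptors, 7 of 15 basement membrane partners and 3 of 5 fibril-binding proteoglycans. Marginal nuclei, lowest of the 8 classes in summed collagen level, had the collagen receptor subunit Itga2 at 255 (241 to 270.1) and 255 (239.8 to 272) CPM, a ratio of 53.3 and 44.2 to the other classes, and the laminin chain Lamb1 at 237 and 246. In intermediate nuclei the calls were the laminin chain Lama4 (139.99 and 151), the prolyl hydroxylases P3h2 (59.4 and 55.9) and P4ha2 (8.27 and 9.13) and the proteoglycan Prelp (49.3 and 59.7). Basal nuclei of both classes were called for the integrin subunit Itga10 (78.5 and 102 in Fat2-rich, 169.9 and 164 in Sorcs3-rich), the laminin chain Lamc3, the gelatinase Mmp2 and Creb3l1, a factor that turns on collagen genes. Bmp1, the protease that trims procollagen, was called in Fat2-rich nuclei (158 and 159) with the laminin chain Lamc1, and the collagen receptor Ddr2 (403 and 467), the galactosyltransferase Colgalt2 (258 and 238), Loxl3, Lama2 and Nid2 in Sorcs3-rich nuclei. Spindle nuclei were called for the crosslinking enzyme Loxl1 (53.4 and 51.2), and root nuclei for the proteoglycan Lum (43.7 and 35.3) and Colgalt2. Reissner nuclei were called for Colgalt2 and the membrane protease Mmp16 (58.1 and 83.9). Runx2-rich nuclei, where 10 collagens were called, had the collagen chaperone Serpinh1 on 14 and 12 UMIs, Adamts2, which trims procollagen, on 22 and 15, Loxl2 on 17 and 23, the collagen-binding proteoglycan Dcn on 19 and 24, the receptors Itga11 and Ddr2, and Lama4 and Mmp16. Adgrg1, a receptor of type III collagen, was called in marginal nuclei on 24 and 23 UMIs. These calls compare the 8 classes alone. Outside them, Dcn was among the top genes of clusters of Cdh6-rich nuclei in RNAlater, and Lama2 among those of a fibrocyte cluster in MethFix.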

How the data were processed

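Single-nucleus RNA-Seq was measured in 2 libraries of mouse stria vascularis. The deposited matrices hold raw UMI counts per gene and barcode, which the authors made with Cell Ranger 3.0.1 on GRCm38 (submitters' processing notes, which also name Scanpy 1.4.5). Whether intronic reads were counted is not given in the sources used here. The labels give 5 to 6 mice for MethFix and 10 for RNAlater, and the methods give 5 and 6. Total counts were 21027671 over 4748 barcodes (MethFix) and 17681824 over 3868 (RNAlater).

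After the methods, nuclei with at least 200 genes, at most 8000 UMIs and at most 10% mitochondrial UMIs were kept. Scrublet (expected rate 0.1) removed 224 of 3596 and 18 of 2329 nuclei, leaving 3372 and 2311. Counts were clustered in scanpy 1.11.5 with leidenalg 0.10.2 (4000 variable genes without the collagens, 30 components, 10 neighbours, resolution 1.0 and 1.5). Clusters were named by 15 marker lists, by a scoring rule set after the clusters were seen, and the Cdh6-rich class was added after seeing the data. UMIs were summed per class and divided by the class total, with exact Poisson or Clopper-Pearson 95% intervals (scipy 1.17.1). Because barcodes were shared, no test was run and leaving out a library left nothing to compare. PCR copies are collapsed by UMI, so intervals cover counting error alone. Where a gene had 0 UMIs, 3 counts were taken as the upper limit. The calling rule was also run on simulated Poisson class sums. These had no spread between nuclei, so they do not cover genes whose UMIs lie in few nuclei.

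Every member is accounted for, with full values for members called in a class and the 3 of each role with the most UMIs, and at most 3 called partner genes per list and class are named. The values of 1 partner gene are not reported here. Members, lists and rules were chosen with earlier results of these data known. Of the alternatives, 25 were planned and 3 were added after seeing the data. They included the scaling factors of edgeR 4.0.16 (TMM) and DESeq2 1.42.0 in R 4.3.3. Promoter sequences are from RefSeq (GRCm38.p6), which held 30 of the 39 members, and were searched for motifs on both strands.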

Additional observations from a re-analysis of the deposited data

How the results depend on the processing

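The count of collagen genes called in a class, 28 by the rule used, was 25 to 28 with other filters, doublets kept, collagens among the clustering genes, a finer resolution, TMM or DESeq2 factors, mitochondrial UMIs left out of totals or fibrocyte and Cdh6-rich nuclei among the other classes. It was 30 at a limit of 2 times, 25 against the mean level of the other 7 classes and 22 with at least 30 UMIs in the class. In the MethFix nuclei whose barcodes were not in the RNAlater matrix it was 14, on fewer nuclei. In that set 29 of 38 levels of called genes also lay outside the counting interval of all MethFix nuclei. The count of partner genes called was 27, and 46 at a limit of 2 times. Over single calls, 473 comparisons with an alternative kept the call, 54 lost it and 1 reversed. The number kept is raised by the 38 comparisons at a limit of 2 times, a looser rule that could not lose a call. In the MethFix nuclei with unshared barcodes, 16 of the 38 calls were kept, and 18 were lost with a UMI in the class. The rest had no UMI in the class there and did not hold either. They are not among the 54 counted as lost. The reversal was Col15a1 in Fat2-rich basal nuclei. Its log2 ratio, averaged over the libraries, was −2.21 against the mean level of the other 7 classes. In that mean, Runx2-rich nuclei weigh as much as any other class. TMM factors (1.36 and 1.59 in Runx2-rich nuclei, 0.877 to 1.09 elsewhere) ended the root calls of Col4a3 and Col4a5. Averaged over the libraries, their log2 ratios were then 2.08 and 1.96, while a call needs each library to reach the limit. No paired analysis was possible because each preservation method has 1 library and no result comes from a test. Leaving out a replicate was not possible for the same reason. Few counts stand behind the levels of Col3a1, Col4a1, Col5a1, Col6a6, Col7a1, Col26a1 and Col28a1, with at most 10 UMIs in any of the 8 classes. Of the MethFix UMIs of Col6a6, Col26a1 and Col4a1, 8.33%, 6.58% and 28.6% lay in these classes. Higher levels were seen in Cdh6-rich nuclei for Col6a6 and Col26a1 and in endothelial nuclei for Col4a1.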
